A study of Arabidopsis thaliana with 23 samples.

Results

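The salt response of the Arabidopsis thaliana mutant sos2-2 was taken from 5 mRNA libraries of whole seedlings, of 11 mRNA libraries and 23 samples in all. The members were defined by their labels: 3 sos2-2 libraries from the NaCl treatment and 2 sos2-2 libraries from MS medium. This comparison was chosen with earlier results of these data known. Seedlings of every group spent 2 days in the cold and then 10 days at 22 °C in constant light on solid MS medium with sucrose. NaCl groups then had 12 hours in liquid MS to which 100 mM NaCl was added. Whether MS seedlings also went into liquid is not given in the labels, so NaCl and transfer cannot be told apart, and "salt" stands for the whole treatment below. The wild type, with 3 libraries in each medium, served for comparison, and the design text of the series names gl1 in its place, a mutant without leaf hairs. No label names separate cultures for the replicates, so the p-values refer to spread among libraries that may be only technical.

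SOS2 is a protein kinase of the salt overly sensitive (SOS) pathway. In the accepted scheme the calcium sensors SOS3 and CBL10 bind and activate SOS2, which activates the sodium and proton antiporter SOS1 at the plasma membrane, so that sodium leaves the cell. Mutants in SOS2 are known for poor growth on salt. Salt also lowers the water potential, and plants respond through the hormone abscisic acid (ABA), which switches on genes for protective proteins and compatible solutes.

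The mutated gene gave no check of the labels. SOS2 (AT5G35410, chromosome 5, 13634399 to 13638375, TAIR10.1) was measured at 1.36 and 1.24 TPM (transcripts in every 1000000) in the MS libraries and at 1.3, 0.893 and 0.818 TPM in the NaCl libraries. Those levels overlap, the change was not called (adjusted p = 0.562, limma), and wild-type libraries held 1.17, 0.88 and 1.21 TPM on MS and 0.967, 1.25 and 1.07 TPM in NaCl. Transcript of the mutant allele was thus counted at about the wild-type level. GL1 (AT3G27920), a MYB factor that starts leaf hairs, was at 0.626 and 0.519 TPM on MS and 0.0725, 0.375 and 0.345 TPM in NaCl in sos2-2, below the level at which genes were tested. Wild-type libraries held 0.317, 0.356 and 0.374 TPM of it on MS and 0.404, 0.599 and 0.43 TPM in NaCl. At such low values GL1 gave no check of the name gl1. SE (AT2G27100), the zinc-finger protein SERRATE of miRNA processing that the series title pairs with SOS2, was at 14 and 11.6 TPM on MS and 17.61, 12.3 and 20.11 TPM in NaCl and was not called (adjusted p = 0.461).

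The table holds TPM, which keep no depth, so the number of reads behind a value is unknown. Log2(TPM + 1) values correlated across genes at r = 0.983 between the MS libraries, at 0.970 to 0.978 among the NaCl libraries and at 0.943 to 0.960 between the groups, a description over genes that are not independent. Plastid transcripts made up 67.9% ± 1.95 (SD, n = 3) of the TPM in NaCl and 70.8% ± 3.08 (SD, n = 2) on MS (exact permutation test, two-sided, p = 0.4, where 0.2 is the smallest possible). Summed TPM of 22 nuclear photosynthesis genes, used as shoot markers, were 13973 and 14599 on MS and 12160, 15216 and 17127 in NaCl. The summed TPM of the root marker list were 639 and 639 on MS and 554, 593 and 755 in NaCl, so neither sum separated the groups. Single markers did in part: 3 of the 22 shoot markers were lower in every NaCl library than in both MS libraries, and of 10 tested root markers 1 was higher and 2 were lower in that sense. Over all tested genes 28.9% were higher and 7.56% lower in the same sense. Summed TPM of 13 seed genes were 0.693 and 3.83 on MS and 3.69, 11.7 and 7.91 in NaCl, with ABI3 and the seed storage gene CRB among those at or near 0 throughout. The part of these differences in the results was not tested. In whole seedlings, fewer cells of a type and less RNA per cell cannot be told apart.

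Of 16564 genes with a mean of at least 1 TPM over the 11 libraries, 937 (5.66%) were called higher in NaCl and 155 (0.936%) lower, at a Benjamini-Hochberg adjusted p under 0.05. Only called genes are said to have risen or fallen. The gene lists below were chosen with earlier results of these data known. Their counts beside the shares over all genes are thus descriptions and not independent tests. The median gene itself changed by 0.16 on the log2 scale, so every log2 change below is on the log2(TPM + 1) scale, relative to that median, and is followed by its standard error (SE). After centring each library on its median gene, 1461 genes (8.82%) were called, 764 (4.61%) higher and 697 (4.21%) lower, which makes the split between rises and falls a matter of scaling. Under both scalings 705 genes rose and 146 fell, and for each of these the MS and NaCl libraries did not overlap. Over all tested genes the groups did not overlap for 28.9% above and 7.56% below. Of the called genes, 410 rose by more than 1 and 116 fell by more than 1 on the log2 scale, and 20 rose by more than 3 whereas 0 fell that far.

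The number of calls was lower without any 1 of the 5 libraries. Without MS replicate 1 the counts were 599 higher and 57 lower, and without MS replicate 2 they were 389 and 67. Leaving out NaCl replicate 1 gave 850 and 198, NaCl replicate 2 gave 733 and 79, and NaCl replicate 3 gave 549 and 100. There were 328 rises and 32 falls that passed whichever library was left out.

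**Figure D1:**
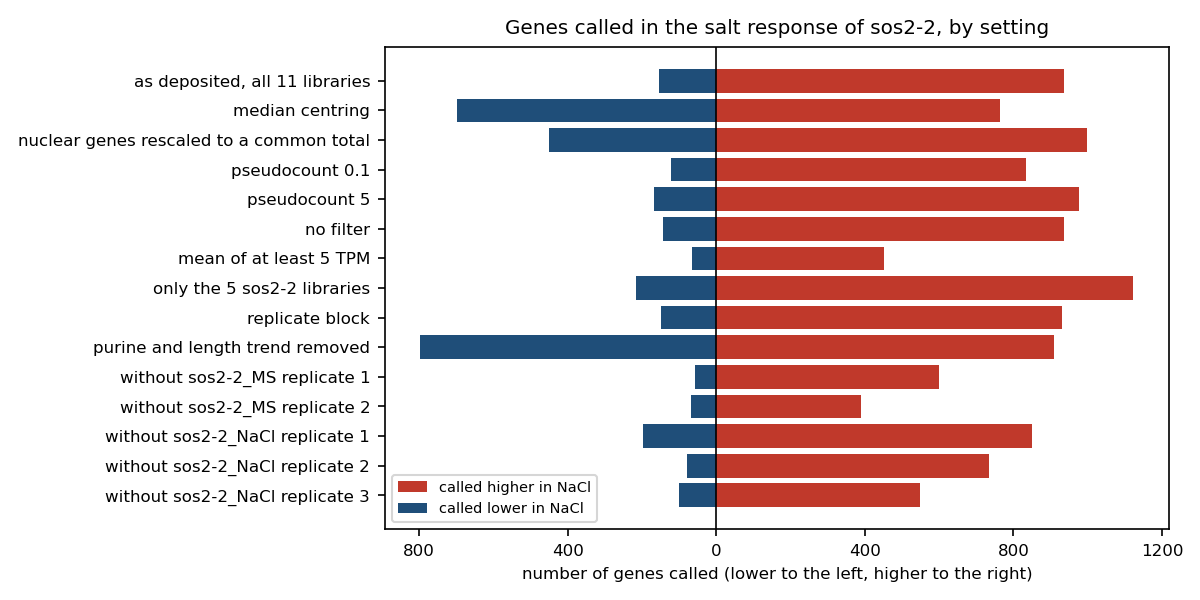
Number of genes called in the salt response of sos2-2 under each setting, with genes called lower in NaCl to the left and higher to the right of 0. Counts of higher genes stay between 389 and 1123, and counts of lower genes run from 57 to 797, highest where the purine and length trend was removed.

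The largest rise was that of a pair of neighbouring lipid transfer protein genes. The promoters of the 3 genes with the largest rises are shown because their letters can be set against the ABA-response element, whose core is ACGTG, and the promoter of RD29B, a textbook ABA target, is shown beside them. Each is up to 250 bases before the annotated gene start, 5′ to 3′ on the gene's own strand, from RefSeq TAIR10.1. Capitals mark the core ACGTG or its reverse complement CACGT, and the core of the dehydration-responsive element, CCGAC or its reverse complement GTCGG. The window of AT2G37870 was shortened where an exon of another gene reaches into it.
LTP4, chr5:23925958-23926207, minus strand: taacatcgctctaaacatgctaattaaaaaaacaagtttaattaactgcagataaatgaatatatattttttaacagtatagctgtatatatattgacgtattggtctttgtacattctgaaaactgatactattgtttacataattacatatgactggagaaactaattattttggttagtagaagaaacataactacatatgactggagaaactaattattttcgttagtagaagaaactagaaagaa
LTP3, chr5:23928704-23928953, plus strand: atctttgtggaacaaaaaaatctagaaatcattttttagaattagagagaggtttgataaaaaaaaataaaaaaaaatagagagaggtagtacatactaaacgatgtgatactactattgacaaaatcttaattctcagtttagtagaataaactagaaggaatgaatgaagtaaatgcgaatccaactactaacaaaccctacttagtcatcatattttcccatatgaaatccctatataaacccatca
AT2G37870, chr2:15858987-15859203, plus strand: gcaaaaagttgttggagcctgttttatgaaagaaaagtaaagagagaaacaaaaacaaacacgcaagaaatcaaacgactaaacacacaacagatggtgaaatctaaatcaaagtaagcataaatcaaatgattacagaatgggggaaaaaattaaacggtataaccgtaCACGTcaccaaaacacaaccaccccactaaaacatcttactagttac
RD29B, chr5:21236771-21237020, plus strand: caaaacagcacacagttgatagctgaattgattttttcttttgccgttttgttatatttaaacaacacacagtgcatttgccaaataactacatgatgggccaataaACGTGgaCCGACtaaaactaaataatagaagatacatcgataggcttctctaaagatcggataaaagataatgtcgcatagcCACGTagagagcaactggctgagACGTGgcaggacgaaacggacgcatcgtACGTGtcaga
The windows of LTP4 and LTP3 held 0 matches to either core, that of AT2G37870 held 1 ABA core, and that of RD29B held 4 ABA cores and 1 dehydration core. Over all tested nuclear genes, 23.48% of such windows held the ABA core and 13.1% the dehydration core, on either strand. Among called genes the ABA core was present in 32.7% of those that rose and 27.2% of those that fell, in 8 of the 15 largest rises and in 3 of the 15 largest falls. A match is a run of letters and not a shown binding site.

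LTP4 (AT5G59310), for a small lipid-binding protein of the cell surface, was at 0.094 and 0.621 TPM on MS and at 69.1, 72.2 and 72.4 TPM in NaCl. The NaCl libraries were close together and far above both MS libraries, a log2 rise of 5.6 ± 0.27 (adjusted p = 8.06e-10). Its neighbour LTP3 (AT5G59320) went from 0.316 and 1.39 to 47.1, 75.5 and 66.2 TPM, a rise of 4.98 ± 0.33 (adjusted p = 2.81e-08). These genes are relatives and may exchange reads, which was not tested. AT2G37870, annotated as a lipid transfer and seed storage type protein, went from 1.69 and 5.64 to 119, 209 and 128 TPM, a rise of 4.97 ± 0.40 (adjusted p = 3.44e-07).

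Among the other genes of the 15 largest rises, COR15A and KIN1 are known from cold and drying. COR15A (AT2G42540), for a chloroplast protein that protects membranes, was at 2.03 and 12.7 TPM on MS and 177, 150.4 and 234 TPM in NaCl, so the MS libraries differed from each other but lay far below all NaCl libraries (log2 rise 4.68 ± 0.41, adjusted p = 6.79e-07). KIN1 (AT5G15960), for a small hydrophilic protein, was at 7.44 and 16.7 and 228, 359 and 274 TPM, a rise of 4.37 ± 0.31. AT3G02480, of the late embryogenesis abundant (LEA) family, went from 0.556 and 0 to 7.72, 21 and 18.1 TPM, a rise of 3.46 ± 0.39. AT1G16850, with no function given by the annotation, was at 5.57 and 5.73 TPM on MS and 82.2, 59.9 and 74.8 TPM in NaCl, tight in both groups, and rose by 3.29 ± 0.22. For KIN1, AT3G02480 and AT1G16850 the adjusted p was 5.39e-08, 8.71e-06 and 2.81e-08 (limma).

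Other large rises were in genes of other roles. AT4G37850, for a basic helix-loop-helix DNA-binding protein, was at 0.444 and 0.865 and 17.5, 19.6 and 21 TPM, a rise of 3.47 ± 0.20 (adjusted p = 5.43e-09). AT2G32020, for an acyl-CoA N-acyltransferase family protein, was at 0.774 and 0.706 TPM on MS and spread over 41.8, 8.04 and 26.1 TPM in NaCl, with replicate 2 lowest (rise 3.49 ± 0.40). The same library was lowest for AT2G38823 (0.54 and 0.15, then 51.3, 18.7 and 46.3 TPM), AT5G24640 (0.947 and 0.463, then 47.6, 12.8 and 29.6 TPM), AT3G54530 (0.33 and 0.0459, then 24.7, 8.37 and 23.2 TPM) and AT4G12735 (2.08 and 1.52, then 46, 15.6 and 33.8 TPM). These 4 genes have no function in the annotation. Their log2 rises were 4.62, 3.86, 3.77 and 3.27 with SE of 0.33, 0.38, 0.33 and 0.34. That their groups do not overlap was part of the rule that picked them.

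**Figure D2:**
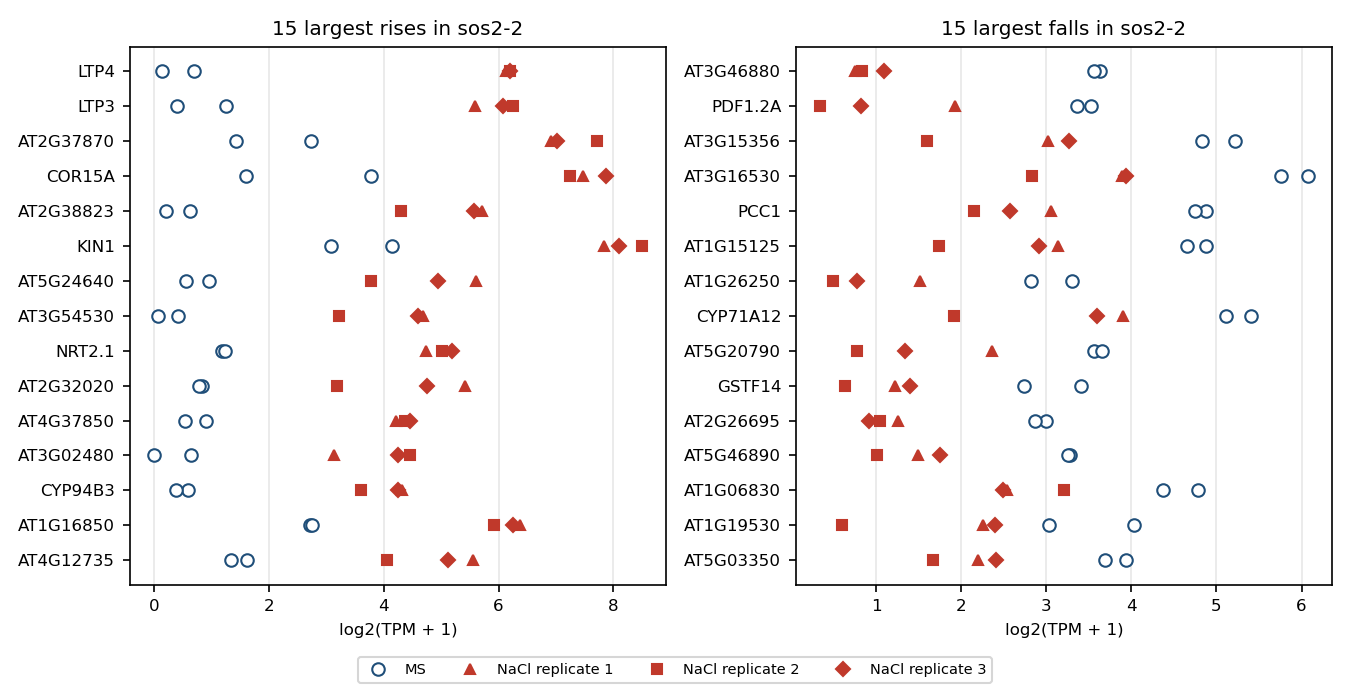
Log2(TPM + 1) in each sos2-2 library for the 15 largest rises (left) and the 15 largest falls (right). Open circles are the 2 MS libraries and filled symbols the 3 NaCl libraries. Genes were picked for groups that do not overlap, so the gap is part of the choice, and NaCl replicate 2 (squares) is the lowest NaCl library for many falls and for several rises.

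Dehydration protection proteins rose in most cases. Of 23 tested genes of that list, 19 rose and 0 fell, against 5.66% and 0.936% of all genes, and 18 rose after centring. Their median log2 change was 1.79, where the median of all genes is 0 by construction. Dehydrins, which coat proteins and membranes in drying cells, were among them: RAB18 went from 1.19 and 1.37 to 10.9, 19.3 and 9.8 TPM (rise 2.44 ± 0.27, adjusted p = 6.14e-06), and XERO2 from 9.27 and 8.94 to 42.1, 39.2 and 56.6 TPM (rise 2.04 ± 0.24). RD29A was at 6.07 and 9.12 TPM on MS and 67.1, 38.7 and 41.6 TPM in NaCl (rise 2.36 ± 0.34, adjusted p = 8.52e-05). RD20, for a calcium-binding lipid-body protein, was at 0.373 and 0.621 and 8.32, 7.01 and 8.01 TPM, with NaCl libraries close together (rise 2.39 ± 0.21). KIN2, the tandem partner of KIN1, was already abundant on MS at 44 and 73 TPM and reached 433, 523 and 558 TPM (rise 2.96 ± 0.27). Regulators in the list rose by less: RD26, a NAC factor, by 1.04 ± 0.21 and HB7, a homeodomain factor, by 1.37 ± 0.26. Of the 19 rises, 15 passed whichever library was left out. ERD10 lost its call without MS replicate 1, MS replicate 2, NaCl replicate 1 or NaCl replicate 3 (adjusted p 0.0695 to 0.284), COR413-PM1 without MS replicate 2 (adjusted p 0.0688), LEA7 without MS replicate 1 (adjusted p 0.0601) and HB12 without any 1 of the 5 libraries (adjusted p 0.076 to 0.206). Relative to the median gene, 20 of the 23 were higher in MS replicate 2 than in MS replicate 1. RD29B, whose promoter is shown above, was too low to test. The ABA core was present in the promoter windows of 12 of the 23 and the dehydration core in 8 of the 23.

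All 3 tested genes that break ABA down rose, with CYP707A4 too low to test, whereas those that make it were not called or were too low to test. CYP707A1, CYP707A2 and CYP707A3 encode ABA 8'-hydroxylases, which inactivate the hormone. CYP707A3 was at 1.07 and 1.62 TPM on MS and 7.78, 13.4 and 12.8 TPM in NaCl (rise 2.21 ± 0.32, adjusted p = 9.53e-05), and CYP707A1 at 1.2 and 0.694 and 6.34, 6.03 and 10.3 TPM (rise 1.95 ± 0.23, adjusted p = 8.34e-06). CYP707A2 rose by 0.97 ± 0.30 and lost its call without MS replicate 1, MS replicate 2, NaCl replicate 2 or NaCl replicate 3 (adjusted p 0.0582 to 0.196). BGLU18, a glucosidase that frees stored ABA, rose by 0.62 ± 0.23 as deposited only (adjusted p = 0.0467, 0.0764 after centring), and lost the call without any 1 of the 5 libraries (adjusted p 0.0742 to 0.31). NCED3, NCED5 and NCED9, of the rate-limiting step of ABA synthesis, were below 1 TPM on average. In all, 4 of 8 tested genes rose and 0 fell, against 5.66% and 0.936% of all genes, with a median of 0.48.

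In ABA signalling 4 of 6 tested clade A phosphatase genes rose, whereas HAB1 (change 0.10, adjusted p = 0.577) and HAB2 (0.08, adjusted p = 0.591) were not called and HAI1, HAI3 and AHG1 were too low to test. These phosphatases hold the SnRK2 kinases inactive until ABA-bound receptors of the PYR/PYL family inhibit them. HAI2 was at 0.0965 and 0.0539 TPM on MS and 3.14, 2.83 and 2.75 TPM in NaCl (rise 1.7 ± 0.19, adjusted p = 4.79e-06). PP2CA went from 4.2 and 5.1 to 11.3, 13.5 and 11.3 TPM (rise 1.05 ± 0.19, adjusted p = 0.00052) and ABI2 from 1.06 and 0.665 to 2.35, 3.15 and 3.37 TPM (rise 0.92 ± 0.19, adjusted p = 0.00125). ABI1 rose by 0.66 ± 0.22, a call lost without MS replicate 2, NaCl replicate 1 or NaCl replicate 3 (adjusted p 0.0736 to 0.434). The kinase OST1 rose by 0.58 ± 0.21 and lost its call without any 1 of the 5 libraries (adjusted p 0.0633 to 0.263). Of the receptors, PYL6 fell, from 8.62 and 5.3 to 3.47, 2.86 and 3.28 TPM (-1.05 ± 0.23, adjusted p = 0.0241), with the call lost without MS replicate 1, NaCl replicate 2 or NaCl replicate 3 (adjusted p 0.0636 to 0.269). Of 22 tested genes 5 rose and 1 fell, against 5.66% and 0.936% of all genes. The counts after centring were the same, and the list median was 0.11.

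Proline and sugars of the raffinose family are compatible solutes. P5CS1, for the enzyme that commits glutamate to proline, went from 6.03 and 5.73 to 46.4, 32.3 and 42 TPM, a rise of 2.41 ± 0.21 (adjusted p = 4.66e-07). Its paralogue P5CS2 rose by 0.60 ± 0.22 and lost that call without any 1 of the 5 libraries (adjusted p 0.0835 to 0.446). PRODH1, the first enzyme of proline breakdown, was at 24.9 and 32.3 and 32.5, 34.5 and 43.1 TPM and was not called (adjusted p = 0.469). Of 8 proline genes 2 rose and 0 fell, against 5.66% and 0.936% of all genes. Of 5 genes of the raffinose pathway 3 rose: galactinol synthase GOLS4 went from 0.195 and 0.325 to 1.63, 3.27 and 2.84 TPM (rise 1.32 ± 0.25, adjusted p = 0.00075), raffinose synthase RS5 rose by 0.83 ± 0.21, and GOLS1 by 0.70 ± 0.23. RS5 lost the call without MS replicate 2 (adjusted p 0.0751) and GOLS1 without MS replicate 1, MS replicate 2, NaCl replicate 2 or NaCl replicate 3 (adjusted p 0.0805 to 0.199), and GOLS1 was not called after centring (adjusted p = 0.0625). DIN10, a raffinose synthase relative induced by dark and sugar starvation, fell from 30.8 and 28.2 to 16.5, 13.6 and 15.2 TPM (-1.09 ± 0.21, adjusted p = 0.0119), a call lost without MS replicate 1 or MS replicate 2 (adjusted p 0.0775 to 0.105).

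Of 16 tested genes of sodium and potassium transport 1 rose and 0 fell, where 5.66% and 0.936% of all genes did, with a median of 0.09. The antiporter SOS1 was at 1.91 and 1.62 TPM on MS and 2.1, 2.11 and 2.53 TPM in NaCl (change 0.07, adjusted p = 0.551), and the sensor SOS3 at 1.86 and 1.46 and 2.38, 2.08 and 2.77 TPM (change 0.19, adjusted p = 0.287). NHX1, which loads sodium and potassium into the vacuole, was abundant at 14.6 and 10.8 and 17.5, 15.8 and 25.1 TPM and was not called (adjusted p = 0.19). Its relative NHX2 went from 1.2 and 1.24 to 2.28, 2.27 and 2.9 TPM, a rise of 0.48 ± 0.19 (adjusted p = 0.0453, 0.0516 after centring), lost without any 1 of the 5 libraries (adjusted p 0.0675 to 0.251). HKT1 and HAK5, transporters of sodium and potassium, were below 1 TPM on average and were not tested.

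Most tested marker genes of mitochondrial stress rose, whereas 5.66% of all tested genes rose and 0.936% fell. When the respiratory chain is disturbed, NAC013 and NAC017, factors tethered to the endoplasmic reticulum, are released and switch on nuclear genes. The set listed here holds such genes and also NAC013 and NAC017 themselves. Of 12 tested genes of that set 8 rose, under both scalings and whichever library was left out, 0 fell, and the median was 1.81. AOX1A, for the alternative oxidase that lets electrons bypass the later complexes, was at 3.84 and 2.57 TPM on MS and 28.2, 17.9 and 24.3 TPM in NaCl (rise 2.37 ± 0.27, adjusted p = 6.92e-06). SOT12, a sulfotransferase, went from 7.38 and 4.28 to 81.7, 43.9 and 88.1 TPM (rise 3.22 ± 0.30, adjusted p = 1.57e-06), the largest change in the list. OM66, for an ATPase of the outer membrane, went from 4.3 and 1.93 to 47.1, 16.3 and 43.6 TPM (rise 2.92 ± 0.35), and the glucosyltransferase gene UGT74E2 from 2.83 and 1.28 to 26.9, 10.3 and 24.3 TPM (rise 2.6 ± 0.31). The groups are well apart for each of these genes, and the order of the NaCl libraries is alike: all 8 called genes were highest in NaCl replicate 1 and lowest in replicate 2, relative to the median gene. The small heat shock type chaperone gene AT5G51440 rose by 2.1 ± 0.33, AT2G21640, annotated as a marker of oxidative stress, by 1.96 ± 0.32, the external NADH dehydrogenase gene NDB2 by 1.45 ± 0.22 and NAC013 itself by 1.65 ± 0.27. AOX1B, AOX1C and AOX1D were too low to test.

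Genes of reactive oxygen metabolism gave another count. Of 14 genes for catalases, ascorbate peroxidases, superoxide dismutases and NADPH oxidases, 0 rose and 0 fell in the limma fit. The shares over all genes were 5.66% and 0.936%, and the list median was -0.02. The smallest p was that of RBOHF, an NADPH oxidase gene, at 5.28 and 4.31 TPM on MS and 8.06, 8.03 and 8.66 TPM in NaCl (change 0.52 ± 0.20, adjusted p = 0.056). After centring it was called higher (adjusted p = 0.0486) and FSD2, a plastid iron superoxide dismutase gene, lower (adjusted p = 0.00669).

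Tau class glutathione S-transferases conjugate glutathione to reactive compounds and foreign chemicals. They rose in 11 of 22 tested genes and fell in 0, against 5.66% and 0.936% of all genes, with a median of 0.47. After centring the count was 8 higher and 1 lower, GSTU28 (adjusted p = 0.0368). GSTU9 went from 2.75 and 2.07 to 37.1, 15.3 and 32.9 TPM (rise 2.86 ± 0.31, adjusted p = 4.64e-06) and GSTU25 from 3.81 and 2.64 to 50.3, 19.1 and 32.7 TPM (rise 2.8 ± 0.29, adjusted p = 3.5e-06). Both had their lowest NaCl value in replicate 2, as did 8 of the 11 called genes relative to the median gene. GSTU22 was tighter, at 0.663 and 0.772 TPM on MS and 5.1, 4.61 and 5.7 TPM in NaCl (rise 1.67 ± 0.18, adjusted p = 4.36e-06). GSTU24, next to GSTU25 and possibly sharing reads with it, rose by 1.75 ± 0.26, GSTU2 by 1.49 ± 0.20 and GSTU1 by 1.41 ± 0.25. Of the 11 rises 6 passed whichever library was left out. GSTU4 lost its call without MS replicate 1, MS replicate 2, NaCl replicate 1 or NaCl replicate 3 (adjusted p 0.0516 to 0.552), GSTU5 without any 1 of the 5 libraries (adjusted p 0.0557 to 0.261), GSTU12 without MS replicate 1, MS replicate 2, NaCl replicate 1 or NaCl replicate 3 (adjusted p 0.0634 to 0.156), GSTU16 without any 1 of the 5 libraries (adjusted p 0.0749 to 0.223) and GSTU17 without MS replicate 2 (adjusted p 0.0931).

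**Figure D3:**
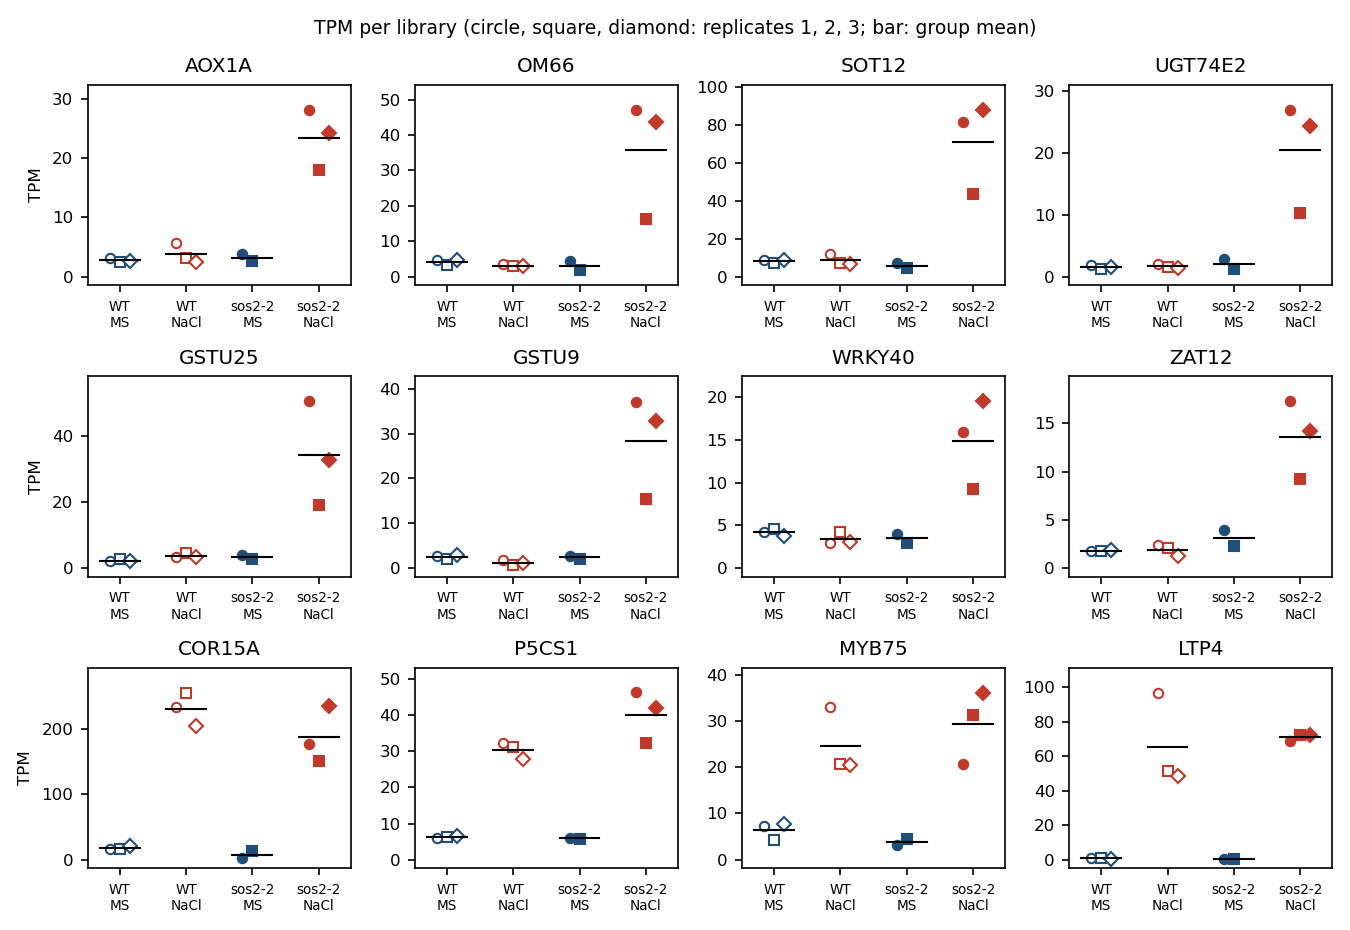
TPM of 12 named genes in the 11 libraries, wild type with open and sos2-2 with filled symbols, MS in blue and NaCl in red, and the group mean as a bar. For AOX1A the sos2-2 NaCl libraries sit at 17.9 to 28.2 TPM while every other library is at 5.75 TPM or less, whereas COR15A, P5CS1, MYB75 and LTP4 are high in NaCl in both genotypes.

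Stress transcription factors and ethylene genes rose in 12 of 27 tested genes and fell in 2 (10 and 3 after centring), with a median of 0.65. The shares over all genes were 5.66% and 0.936% (4.61% and 4.21% after centring). RAP2.6, an ethylene response type factor, was at 5.91 and 3.05 TPM on MS and 29, 25.6 and 31.6 TPM in NaCl (rise 2.32 ± 0.24, adjusted p = 3.39e-06). ACS7, for an enzyme of the step that limits ethylene synthesis, went from 4.29 and 2.54 to 21.6, 11.5 and 15.7 TPM (rise 1.8 ± 0.25, adjusted p = 6.1e-05). Zinc-finger repressors of stress responses rose too: ZAT12 from 3.93 and 2.34 to 17.3, 9.23 and 14.2 TPM (rise 1.64 ± 0.25) and AZF2 from 4.5 and 3.79 to 13.9, 11.4 and 16.3 TPM (rise 1.36 ± 0.21). WRKY40 went from 4.04 and 2.91 to 15.9, 9.25 and 19.6 TPM (rise 1.62 ± 0.25) and WRKY25 from 8.14 and 4.33 to 29.9, 14.6 and 29.8 TPM (rise 1.65 ± 0.30). The adjusted p of ZAT12, AZF2, WRKY40 and WRKY25 was 0.000117, 0.0001, 0.000166 and 0.000734 (limma). DREB2A, which binds the dehydration-responsive element, rose by 1.33 ± 0.23 and the NAC factor ATAF1 by 1.33 ± 0.22. CBF1, CBF2 and CBF3, the cold factors that bind the same element, were too low to test. ACO1, of the last step of ethylene synthesis, and WRKY70, a factor of salicylic acid responses, fell by -1.18 and -1.11. Of the 14 calls, 8 rises and 0 falls passed whichever library was left out. ACO1 was lost without MS replicate 1 or NaCl replicate 2 (adjusted p 0.055 to 0.137), WRKY70 without MS replicate 1, MS replicate 2, NaCl replicate 2 or NaCl replicate 3 (adjusted p 0.0547 to 0.217), and ACS6 without MS replicate 1 (adjusted p 0.0665). RAP2.6L was lost without MS replicate 2, NaCl replicate 1 or NaCl replicate 3 (adjusted p 0.053 to 0.776), ZAT10 without MS replicate 1, MS replicate 2, NaCl replicate 1 or NaCl replicate 3 (adjusted p 0.0623 to 0.327) and AZF1 without MS replicate 2, NaCl replicate 1, NaCl replicate 2 or NaCl replicate 3 (adjusted p 0.0573 to 0.417).

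Of 11 tested nitrogen genes 3 of nitrate transport rose and 1 of nitrate reduction fell, where 5.66% and 0.936% of all genes did. NRT2.1, the main high-affinity nitrate transporter of roots, was at 1.26 and 1.34 TPM on MS and 25.7, 31.2 and 35.5 TPM in NaCl, tight in both groups (rise 3.62 ± 0.24, adjusted p = 2.79e-08). Its partner protein NRT3.1 went from 26.7 and 19.2 to 70.6, 70.6 and 97.4 TPM (rise 1.59 ± 0.24, adjusted p = 9.53e-05). NRT1.8, which takes nitrate back out of the xylem, went from 2.91 and 0.944 to 22.3, 27.2 and 28.3 TPM (rise 3.12 ± 0.26, adjusted p = 3.54e-07). Nitrate reductase NIA1 fell from 78.2 and 74.8 to 29.4, 30.7 and 31 TPM (-1.47 ± 0.22, adjusted p = 0.000814). All 4 calls passed whichever library was left out. NRT1.5 (change -0.23, adjusted p = 0.923) and the reductase genes NIA2 (-0.09, adjusted p = 0.891) and NIR1 (0.08, adjusted p = 0.61) were not called, NRT2.2, NRT2.4 and NRT2.5 were too low to test, and NRT1.1, a nitrate transporter and sensor, was lower after centring only (adjusted p = 0.0126).

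Other nutrients gave single calls, where 5.66% of all genes rose and 0.936% fell. The phosphate transporter PHT1;1 went from 13.1 and 11.5 to 32.4, 45 and 43.6 TPM (rise 1.47 ± 0.24, adjusted p = 0.000211), 1 of 8 tested phosphate genes. Of 10 sulfate genes 1 rose, SDI1, a gene of sulfur deficiency, by 0.82 ± 0.25, and it was not called after centring (adjusted p = 0.137) or without MS replicate 1, NaCl replicate 2 or NaCl replicate 3 (adjusted p 0.0668 to 0.345). Of 9 iron genes 1 rose, the iron uptake regulator FIT1, from 1.99 and 2.36 to 4.41, 5.48 and 4.79 TPM (0.73 ± 0.19, adjusted p = 0.00751), a call lost without MS replicate 1 (adjusted p 0.093). After centring, the ferritin FER1 was called higher too (adjusted p = 0.0464), and NAS4 and FRO3 lower (0.0313 and 0.0126).

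Jasmonate genes rose in 5 of 19 tested genes and fell in 0, against 5.66% and 0.936% of all genes, with a median of 0.35. After centring 3 were higher, where 4.61% of all genes were. LOX2, a plastid lipoxygenase of jasmonate synthesis, went from 76.4 and 84.3 to 225, 251 and 329.7 TPM (rise 1.55 ± 0.26, adjusted p = 0.0003). VSP2, for a vegetative storage protein and classic jasmonate target, went from 1.19 and 4.38 to 14.3, 24.9 and 22.3 TPM (rise 2.45 ± 0.35, adjusted p = 8.99e-05). CYP94B3, outside the list, encodes an enzyme that inactivates the active hormone jasmonoyl-isoleucine and was at 0.51 and 0.294 TPM on MS and 19, 11.1 and 18 TPM in NaCl, a rise of 3.41 ± 0.23 (adjusted p = 2.79e-08). The repressor JAZ1 rose by 1.07 ± 0.24, lost without MS replicate 2 (adjusted p 0.0868). VSP1 rose by 0.98 ± 0.26, lost without MS replicate 1 or NaCl replicate 2 (adjusted p 0.0521 to 0.216), and the synthesis enzyme AOS by 0.71 ± 0.26, lost without MS replicate 1, MS replicate 2, NaCl replicate 1 or NaCl replicate 2 (adjusted p 0.0558 to 0.339).

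Defence genes supplied several of the largest falls, with 3 of 15 tested lower and 0 higher, against 0.936% and 5.66% of all genes. The antifungal defensin PDF1.2A went from 9.28 and 10.5 TPM on MS to 2.81, 0.268 and 0.761 TPM in NaCl (-2.57 ± 0.41, adjusted p = 0.000991). PCC1, a small pathogen-responsive gene, went from 28.3 and 25.8 to 7.29, 3.42 and 4.96 TPM (-2.38 ± 0.42, adjusted p = 0.00232). CYP71A12, of indole defence compounds, went from 41.3 and 33.5 to 13.9, 2.78 and 11 TPM (-2.28 ± 0.50, adjusted p = 0.0128), a call lost without MS replicate 1 or MS replicate 2 (adjusted p 0.0754 to 0.106). PDF1.2C was called lower after centring only (adjusted p = 0.036). Outside the list, 3 genes annotated as legume lectin family proteins were among the 15 largest falls: AT3G16530 from 66.3 and 53.4 to 13.9, 6.1 and 14.3 TPM, AT3G15356 from 36.2 and 27.5 to 7.11, 2.02 and 8.64 TPM and AT5G03350 from 11.9 and 14.3 to 3.58, 2.18 and 4.33 TPM. Their changes were -2.53 ± 0.34, -2.56 ± 0.36 and -1.88 ± 0.26. In PDF1.2A, PCC1, CYP71A12 and these lectins NaCl replicate 2 was the lowest library.

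The largest fall was that of AT3G46880, with no function in the annotation, from 11.4 and 10.8 TPM on MS to 0.685, 0.782 and 1.13 TPM in NaCl (-2.86 ± 0.26, adjusted p = 2.92e-06). AT1G15125, for a methyltransferase family protein, went from 28.3 and 24.1 to 7.79, 2.35 and 6.51 TPM (-2.33 ± 0.32, adjusted p = 0.00022). AT1G26250, a proline-rich extensin-like gene, went from 8.85 and 6.07 to 1.87, 0.403 and 0.709 TPM (-2.29 ± 0.28, adjusted p = 6.98e-05). GSTF14, a phi class glutathione S-transferase gene, went from 5.68 and 9.6 to 1.33, 0.55 and 1.64 TPM (-2.15 ± 0.29, adjusted p = 0.000189). The other 5 of the 15 were AT5G20790, the zinc-finger gene AT2G26695, AT5G46890 of the lipid transfer type, the glutaredoxin gene AT1G06830 and AT1G19530, with changes of -2.28 to -1.94. AT5G20790 lost its call without MS replicate 1 or MS replicate 2 (adjusted p 0.0514 to 0.0859), AT1G06830 without MS replicate 2 (adjusted p 0.0512) and AT1G19530 without MS replicate 1 (adjusted p 0.191).

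Flavonoid and anthocyanin genes, of the red and purple pigments of stressed leaves, rose in 10 of 14 tested genes with 0 lower and a median of 1.06. After centring 7 rose. The shares of all genes that rose were 5.66% and, after centring, 4.61%. MYB75, the MYB factor that switches on the late pathway, was at 3.08 and 4.44 TPM on MS and 20.7, 31.3 and 36.2 TPM in NaCl (rise 2.49 ± 0.29, adjusted p = 9.21e-06). Its bHLH partner TT8 went from 2.12 and 3.02 to 6.37, 6.59 and 7.37 TPM (rise 0.97 ± 0.19). Of the enzymes that decorate the pigment, the glycosyltransferase genes UF3GT and AT4G14090 went from 3.39 and 8.86 to 19.3, 22.6 and 23.4 TPM (rise 1.62 ± 0.28) and from 4.57 and 10.8 to 25, 31.7 and 32.6 TPM (rise 1.75 ± 0.31). DFR, the first enzyme of the anthocyanin branch, went from 10.4 and 29.8 to 50.8, 72.2 and 67.6 TPM (rise 1.61 ± 0.32, adjusted p = 0.00148) and MS replicate 2 well above replicate 1. All 14 genes were higher in MS replicate 2 than in replicate 1 relative to the median gene, by a median of 0.76 on the log2 scale. Without MS replicate 1 the adjusted p was 0.0669 for DFR, 0.0936 for LDOX, the next enzyme, and 0.126 for GSTF12, which carries the pigment to the vacuole. F3H lost its call without MS replicate 1, MS replicate 2, NaCl replicate 2 or NaCl replicate 3 (adjusted p 0.0873 to 0.247), TT7 without MS replicate 1, NaCl replicate 2 or NaCl replicate 3 (adjusted p 0.0587 to 0.225) and 5MAT without MS replicate 1, NaCl replicate 2 or NaCl replicate 3 (adjusted p 0.0694 to 0.339), so 4 of the 10 passed whichever library was left out. Relative to the median gene, 9 of the 10 were lowest in NaCl replicate 1. Counted separately, 9 of the 10 were highest in NaCl replicate 2, and these are not all the same genes. The called mitochondrial stress genes were instead highest in replicate 1 and lowest in replicate 2.

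Of 13 tested cell cycle genes 2 fell and 0 rose, with a median of -0.46, and 6 were lower after centring. The shares of all genes that fell were 0.936% and, after centring, 4.21%. CYCB1;2, a mitotic cyclin gene, went from 9.81 and 9.21 to 5.5, 4.58 and 6.0 TPM (-0.89 ± 0.22, adjusted p = 0.0498, 0.000618 after centring). CDC20.1, an activator of the complex that ends mitosis, went from 10.2 and 8.17 to 5.11, 3.78 and 5.96 TPM (-0.95 ± 0.23, adjusted p = 0.0452, 0.000852 after centring). As deposited, CYCB1;2 lost its call without any 1 of the 5 libraries (adjusted p 0.0808 to 0.235) and CDC20.1 without MS replicate 1, MS replicate 2, NaCl replicate 1 or NaCl replicate 2 (adjusted p 0.0737 to 0.254). The others called after centring were CYCB1;1, KN, MCM2 and MCM5.

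Of cell wall genes 1 of 11 rose and 1 fell, where 5.66% and 0.936% of all genes did. Both called genes are expansins, proteins that loosen the wall. EXPA10 went from 18.8 and 13.9 to 73.6, 71.2 and 68 TPM (rise 1.91 ± 0.28, adjusted p = 0.000109). EXPA8 went from 4.69 and 6.62 to 2.41, 1.67 and 2.25 TPM (-1.25 ± 0.26, adjusted p = 0.0138), lost without MS replicate 2 or NaCl replicate 2 (adjusted p 0.054 to 0.244). Of 11 senescence genes 2 rose and 1 fell: the sugar transporter SAG29 went from 0.438 and 0.813 to 5.33, 3.46 and 4.49 TPM (rise 1.57 ± 0.22, adjusted p = 6.07e-05), WRKY6 rose by 1.07 ± 0.23, lost without MS replicate 2 (adjusted p 0.0776), and SEN1, a gene induced in the dark, fell from 8.1 and 8.5 to 2.94, 2.91 and 3.36 TPM (-1.36 ± 0.22, adjusted p = 0.00216).

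Photosynthesis, root, aquaporin and miRNA machinery genes gave 0 calls in the limma fit as deposited. Of 22 nuclear photosynthesis genes the median was -0.15, and RBCS1B, RBCS2B and RCA were lower after centring. RCA, the activase of Rubisco, was at 311 and 334 TPM on MS and 211, 202 and 218 TPM in NaCl, groups that do not overlap (change -0.78, adjusted p = 0.105, 0.00265 after centring). Of 10 root genes PRP3 was lower after centring (adjusted p = 0.0161). Of 17 aquaporin genes and 15 miRNA machinery genes 0 were called under either scaling, and the smallest p belonged to PIP1;4 (14.3 and 13.6, then 18.9, 24.7 and 27.2 TPM, adjusted p = 0.0736) and to HYL1, the partner of the miRNA Dicer (3.8 and 2.41, then 5.03, 4.08 and 4.69 TPM, adjusted p = 0.258). At an unadjusted p under 0.05, 3083 genes of all kinds passed, and at the adjusted threshold 5.66% of all genes rose and 0.936% fell. Of 6 tested heat shock genes 1 rose, the factor gene HSFB2A, by 0.68 ± 0.24, which was not called after centring (adjusted p = 0.191) or without any 1 of the 5 libraries (adjusted p 0.074 to 0.199).

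**Figure D4:**
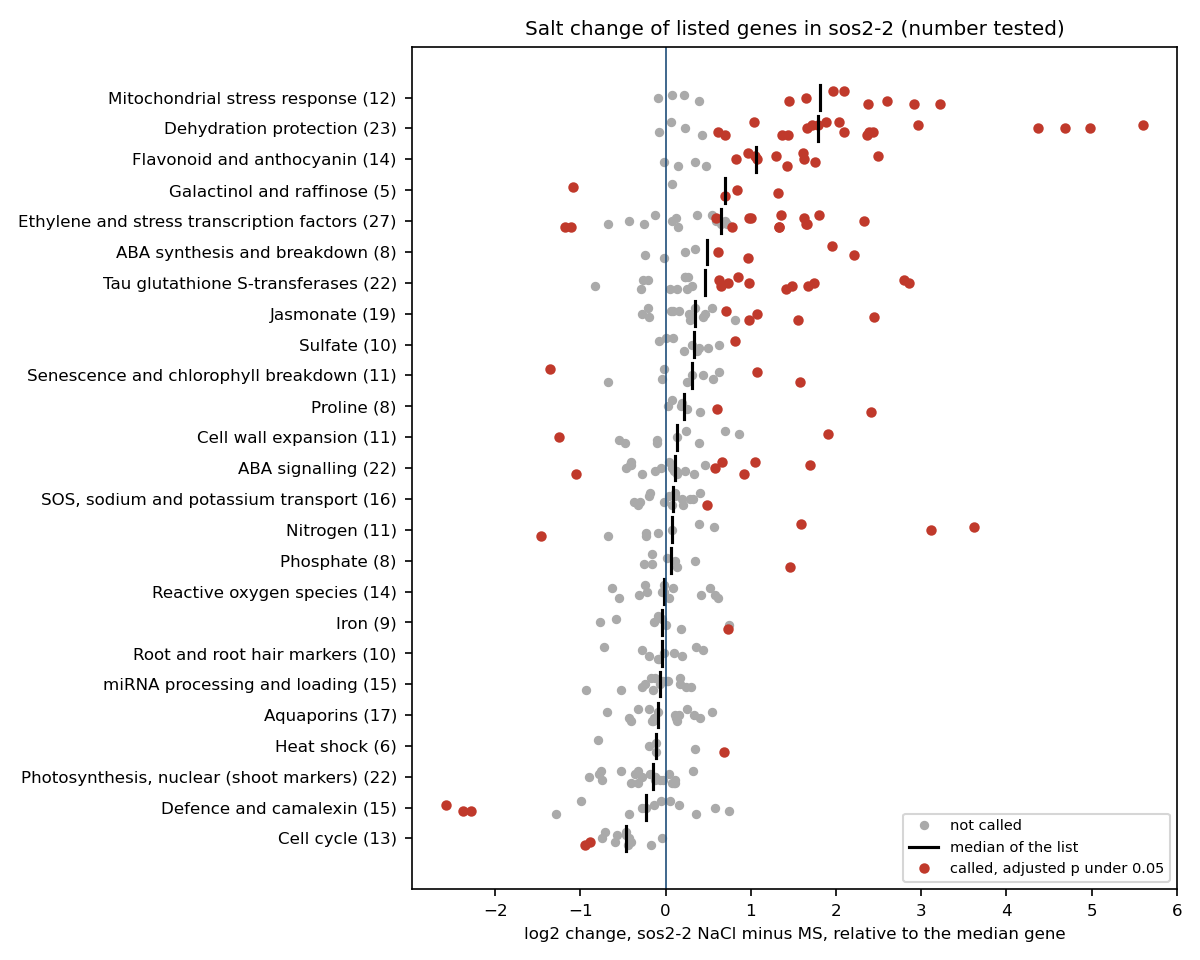
Log2 salt change in sos2-2 of each tested gene of 25 lists, relative to the median gene, with called genes in red and the list median as a bar. The mitochondrial stress and dehydration lists have medians of 1.81 and 1.79, and the cell cycle list has the lowest, -0.46.

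The wild type shows which of these changes the mutant had in common with it. In wild type 281 genes (1.7%) rose and 1277 (7.71%) fell, with a median gene of -0.21 on the log2 scale against 0.16 in sos2-2. The rises in common numbered 178, which is 19.0% of those of sos2-2 and 63.3% of those of wild type. The falls in common numbered 96, 61.9% of those of sos2-2 and 7.52% of those of wild type. After centring the shared rises were 283, 37.0% and 44.5% of the lists, and the shared falls 269, 38.6% and 25.5%. The difference between the responses was tested as an interaction, sos2-2 change minus wild-type change, in which 338 genes (2.04%) were called, 326 (1.97%) positive and 12 (0.0724%) negative. After centring 124 were called (0.749%), 113 positive and 11 negative. Printed interactions are relative to the median gene, whose own interaction was 0.39 as deposited. Each adjusted p belongs to the value as deposited, unless centring is named. Without wild-type NaCl replicate 1 the count was 3559, without wild-type NaCl replicate 3 177, without sos2-2 MS replicate 2 128, without sos2-2 NaCl replicate 1 676 and without sos2-2 NaCl replicate 3 199. Plastid transcripts took 71.5%, 74.2% and 79.3% of the TPM in the wild-type NaCl libraries, against 65.9% to 69.8% in those of sos2-2, and the part of that in the interaction was not tested.

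For several of the large rises the interaction was not called. LTP4 changed by 5.47 in wild type and 5.6 in sos2-2 (interaction 0.11 ± 0.37, limma adjusted p = 0.37 as deposited and 0.916 after centring). P5CS1 changed by 2.32 and 2.41 (interaction 0.07 ± 0.28, limma adjusted p = 0.293 and 0.895 after centring). MYB75 changed by 2.01 and 2.49 (interaction 0.46 ± 0.39, limma adjusted p = 0.189 and 0.537 after centring). A p that misses the threshold does not show that the changes were equal. Of the dehydration list 1 of 23 genes was called in the interaction, LEA4-5 (0.99, adjusted p = 0.0127, 0.22 after centring), and of the flavonoid list 0 of 14. Over all genes 2.04% were called in the interaction. The medians of the dehydration and flavonoid lists in wild type were 1.43 and 1.13.

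Some mitochondrial stress genes differed between the genotypes. Of 12 tested genes 6 were called in the interaction, all larger in sos2-2, against 1.97% of all genes in that direction, and the wild-type median was 0.20. OM66 in wild type was at 4.81, 3.18 and 4.66 TPM on MS and 3.48, 2.97 and 2.94 TPM in NaCl (interaction 3.02 ± 0.46, adjusted p = 0.000524). SOT12 in wild type was at 8.87, 7.37 and 8.99 and 12.2, 7.04 and 6.62 TPM (interaction 3.0 ± 0.41, adjusted p = 0.000186), and AOX1A at 3.06, 2.42 and 2.68 and 5.75, 3.08 and 2.42 TPM (interaction 1.85 ± 0.36, adjusted p = 0.00159). UGT74E2 had an interaction of 2.28 ± 0.42 (adjusted p = 0.00143). The calls of AT5G51440 and AT2G21640 were lost after centring (adjusted p = 0.128 and 0.0715). Without sos2-2 MS replicate 2 their adjusted p was 0.0955 and 0.113, and AT2G21640 was also lost without wild-type NaCl replicate 3.

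Tau glutathione S-transferases gave 6 interaction calls of 22 and the stress transcription factors 11 of 27, all of them positive, against 1.97% of all genes. Of the 338 calls over all genes 326 were positive as well. After centring GSTU1, GSTU2 and WRKY25 were not called (limma adjusted p = 0.112, 0.0709 and 0.0777). GSTU9, GSTU22, GSTU25, RAP2.6, ACS7, WRKY40, AZF2 and ZAT12 kept the call after centring. GSTU9 was at 2.76, 2.05 and 2.84 TPM on MS and 1.88, 0.59 and 1.14 TPM in NaCl in wild type, so its NaCl values were the lower ones there (interaction 3.36 ± 0.41, adjusted p = 6.97e-05). GSTU22 had an interaction of 1.33 ± 0.25 (adjusted p = 0.000635) and GSTU25 of 2.07 ± 0.39 (adjusted p = 0.00148). RAP2.6 in wild type was at 7.23, 4.63 and 5.71 and 5.89, 5.15 and 4.49 TPM (interaction 2.23 ± 0.32, adjusted p = 0.000199), and ACS7 at 4.71, 3.11 and 3.35 and 1.8, 2.34 and 1.72 TPM (interaction 2.24 ± 0.34, adjusted p = 0.00032). DREB2A, with an interaction of 1.37 (adjusted p = 0.00447), changed by -0.06 in wild type.

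Of 11 tested nitrogen genes 3 were called in the interaction, each positive, where 1.97% of all genes were. NRT1.1 and NRT1.5 were not called in it (adjusted p = 0.513 and 0.821). NRT1.8 in wild type was at 1.86, 1.41 and 1.62 TPM on MS and 2.89, 2.64 and 1.6 TPM in NaCl (interaction 2.55 ± 0.35, adjusted p = 0.000147). NRT2.1 rose in wild type as well, from 5.95, 3.92 and 4.05 to 19, 18.4 and 11.8 TPM, and its interaction was 1.77 ± 0.32 (adjusted p = 0.000887). NRT3.1 (1.16, adjusted p = 0.0126) and PHT1;1 (1.23, adjusted p = 0.00953) were called too, and without sos2-2 MS replicate 2 their adjusted p was 0.152 and 0.0852. In wild type NRT3.1 was at 50.9, 42.8 and 47.1 TPM on MS and 57.2, 60.1 and 46 TPM in NaCl. PHT1;1 was there at 17.5, 13.3 and 15.3 and 16.6, 18.7 and 11.7 TPM. On MS, NRT2.1 (1.26 and 1.34 TPM) and NRT3.1 (26.7 and 19.2 TPM) were lower in sos2-2 than in any wild-type library. The ABA hydroxylases CYP707A3 (2.62, adjusted p = 0.000635) and CYP707A1 (1.43, adjusted p = 0.00228) responded more in sos2-2, and CYP707A3 was not called after centring (adjusted p = 0.06).

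The largest positive interactions among the named genes were those of AT2G38823, AT3G54530 and AT5G24640, which have no function in the annotation. AT2G38823 was at 0.79, 0.272 and 0.802 TPM on MS and 1.18, 0.359 and 0.704 TPM in NaCl in wild type (interaction 4.29 ± 0.44, adjusted p = 2.1e-05). AT3G54530 was at 0.892, 0.15 and 0.525 and 0.519, 0.094 and 0.13 TPM there (interaction 3.82 ± 0.45) and AT5G24640 at 0.973, 0.176 and 0.184 and 0.823, 0.16 and 0.129 TPM (interaction 3.7 ± 0.51). AT5G48430, an aspartyl protease family gene, went from 1.71 and 1.25 to 11.7, 18.5 and 19.1 TPM in sos2-2 and from 1.56, 2.3 and 2.34 to 0.748, 1.18 and 0.72 TPM in wild type (interaction 3.1 ± 0.30, adjusted p = 1.44e-05). These genes kept their call whichever of the 11 libraries was left out and after centring.

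Of the 6 named genes with a negative interaction, 5 lost the call without at least 1 library. DOT1, a glycine-rich protein gene, went from 26.1 and 33.4 to 12.4, 3.67 and 3.13 TPM in sos2-2 and was at 2.12, 1.09 and 1.9 and 1.07, 6.57 and 11.7 TPM in wild type (interaction -3.78 ± 0.73, adjusted p = 0.0173, 0.141 after centring). The DOT1 interaction was not called without wild-type MS replicate 2, wild-type NaCl replicate 3 or sos2-2 MS replicate 2 (adjusted p up to 0.123), and its fall in sos2-2 was lost without MS replicate 1, MS replicate 2, NaCl replicate 2 or NaCl replicate 3 (adjusted p 0.0551 to 0.168). AT2G07626 went from 35.7 and 35.5 to 18.8, 13.4 and 10.7 TPM in sos2-2 and was at 18.7, 13.8 and 19.4 and 20.8, 32.2 and 30.6 TPM in wild type (interaction -2.33 ± 0.35, adjusted p = 0.00446), a call kept whichever library was left out. All 515 of its overlapping words of 31 bases also occurs in the mitochondrial genome of the reference, so its reads cannot be told from mitochondrial ones. GSTF14 was at 8.24, 4.47 and 6.34 and 4.67, 6.8 and 3.56 TPM in wild type (interaction -2.08 ± 0.39, adjusted p = 0.0249), a call lost without replicate 2 of any of the 4 groups (adjusted p up to 0.229). AT5G05250, the extensin gene EXT10 and AT1G11930 completed the 6 largest, and in sos2-2 their falls were lost without MS replicate 1, MS replicate 2, NaCl replicate 2 or NaCl replicate 3 (adjusted p 0.0565 to 0.33), without MS replicate 1 (adjusted p 0.112) and without MS replicate 1, MS replicate 2, NaCl replicate 2 or NaCl replicate 3 (adjusted p 0.051 to 0.0948).

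**Figure D5:**
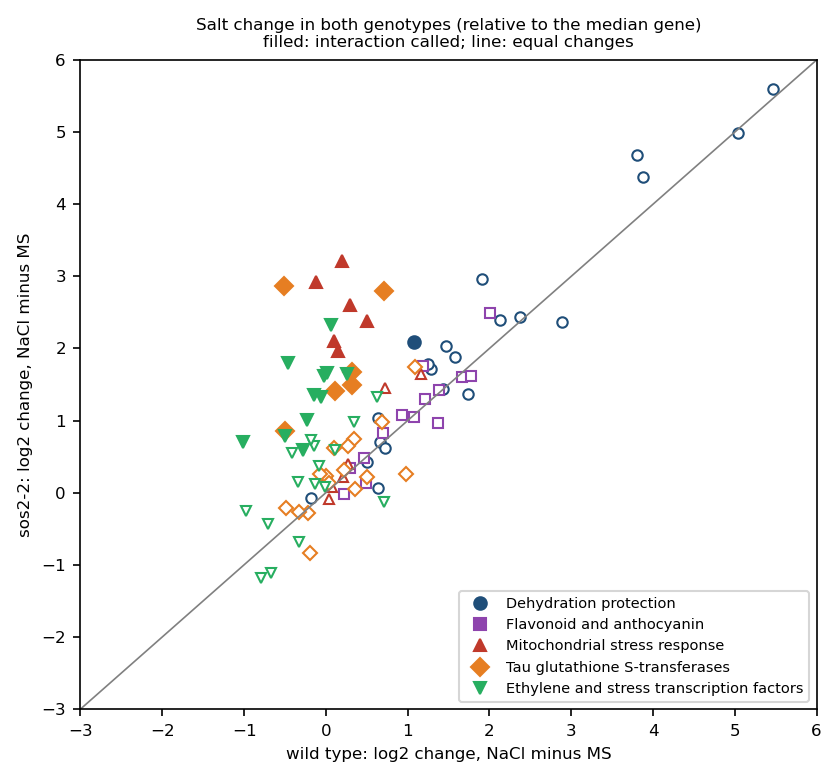
Log2 salt change in sos2-2 against that in wild type for the tested genes of 5 lists, each relative to its median gene, with the line of equal changes. Filled symbols mark genes called in the interaction: 1 dehydration gene, 6 mitochondrial stress genes, 6 tau glutathione S-transferases and 11 stress factors and ethylene genes, and 0 flavonoid genes.

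Organelle and single-transcript values complete the picture. Of 88 plastid genes 0 rose and 4 fell, and of 107 mitochondrially encoded genes 0 were called, with medians of -0.32 and -0.33; after centring 21 and 9 were lower. Of 18940 tested transcripts 550 (2.9%) rose and 78 (0.412%) fell. Among 2521 genes with at least 2 tested transcripts, 0 had a transcript that rose and another that fell in the limma fit, and 18 had such a pair at an unadjusted p under 0.05. Without the filter on low values 5 genes had such a pair, and without MS replicate 1 the count was 1.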

How the data were processed

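The authors deposited TPM per transcript for 11 mRNA libraries. Kallisto 0.46.2, sleuth 0.30.0 and the build TAIR10 are named, per the submitters' processing notes, whereas their roles and the strandedness of counting are not given in the sources used here. Every library summed to 1000000 over 48359 transcripts, organelle transcripts included, so depth is unknown and a larger plastid share lowers all other values. The small RNA table was not used here. TPM were summed to 27655 genes, of which 27445 matched the RefSeq TAIR10.1 annotation that gave symbols, coordinates and promoters. Of 440 listed genes 436 had a symbol there. Related neighbours (LTP3 with LTP4, KIN1 with KIN2, VSP1 with VSP2, GSTU24 with GSTU25) may exchange reads, and their identity was not measured.

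Genes with a mean of at least 1 TPM over the 11 libraries were tested on log2(TPM + 1), a scale that understates changes of low genes. A limma 3.58.1 fit with trend (R 4.3.3) held all 4 groups, which share 1 estimate of the spread because the MS group of sos2-2 has 2 libraries, and gave the salt changes and the interaction. P-values were adjusted over all 16564 genes and come from the values as deposited, while printed changes are relative to the median gene. In simulated data for the sos2-2 contrast with 200 changed genes among 16564, 48% of changes of 1 and 95% of changes of 2 on the log2 scale were recovered. The simulated noise was independent between genes and held no shift of a whole library. In these data the median gene changed by 0.16, so recovery here may differ. Plastid shares were compared by an exact permutation test in scipy 1.17.1.

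Named genes were SOS2, GL1 and SE, the 15 largest rises and 15 largest falls called under both scalings with at least 5 TPM in the higher group and groups apart, the 6 largest interactions each way among genes also called in the salt response, and from each list up to 6 called genes by size, or the smallest p where fewer than 2 were called. No gene met a further rule for transcripts called in opposite directions. Other genes were named after their values were seen. The 26 lists were ABA synthesis and breakdown, ABA signalling, dehydration, seed, proline, raffinose, SOS and ion transport, mitochondrial stress, reactive oxygen, tau glutathione S-transferases, jasmonate, defence, nitrogen, phosphate, sulfate, iron, photosynthesis, senescence, cell cycle, cell wall, root, aquaporins, heat shock, flavonoids, ethylene and stress factors and miRNA machinery. The comparison, the members and the lists were chosen with earlier results of these data known. Alternatives were median centring, rescaling to nuclear genes, pseudocounts of 0.1 and 5, no filter, a filter at 5 TPM, the 5 sos2-2 libraries alone, a replicate block, removal of a purine and length trend per library, and leaving out each library.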

Additional observations from a re-analysis of the deposited data

Results flagged for a closer look

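Over all 16564 tested genes 338 (2.04%) were called in the interaction, 326 (1.97%) positive and 12 (0.0724%) negative. Genes were named in part for the 6 largest interactions each way, and many others for called sos2-2 changes. A count of named genes and its split by sign are thus partly set by that choice. The salt change differed between the genotypes, by the interaction in limma, for 39 named genes, 33 with a positive and 6 with a negative difference. Of these, 30 were also called after median centring, 25 whichever of the 11 libraries was left out, and 23 under both. Values are the sos2-2 change minus the wild-type change on the log2 scale, relative to the median gene.

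Among the genes with little annotation the difference was 4.29 for AT2G38823, 3.82 for AT3G54530, 3.7 for AT5G24640, 3.36 for AT2G32020, 3.1 for AT5G48430, 2.62 for AT4G37850 and 2.59 for AT4G12735. Mitochondrial stress genes differed by 3.02 for OM66, 3.0 for SOT12, 2.28 for UGT74E2, 1.85 for AOX1A, 1.98 for AT5G51440 and 1.79 for AT2G21640. Tau glutathione S-transferases differed by 3.36 for GSTU9, 2.07 for GSTU25, 1.33 for GSTU22, 1.28 for GSTU1 and 1.15 for GSTU2.

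Stress factors and ethylene genes differed by 2.24 for ACS7, 2.23 for RAP2.6, 1.63 for WRKY40, 1.61 for WRKY25, 1.48 for AZF2 and 1.37 for ZAT12. WRKY6, of the senescence list, differed by 0.99. Nutrient transport genes differed by 2.55 for NRT1.8, 1.77 for NRT2.1, 1.23 for PHT1;1 and 1.16 for NRT3.1. Hormone genes differed by 2.62 for CYP707A3, 2.1 for CYP94B3, 1.43 for CYP707A1 and 1.13 for JAZ1. The difference was negative for DOT1 (-3.78), AT5G05250 (-2.84), AT2G07626 (-2.33), GSTF14 (-2.08), EXT10 (-2.0) and AT1G11930 (-1.62).

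After centring, the interaction was not called for CYP707A3 (adjusted p = 0.06), AT5G51440 (0.128), AT2G21640 (0.0715), GSTU2 (0.0709), GSTU1 (0.112), WRKY25 (0.0777), DOT1 (0.141), AT5G05250 (0.156) and EXT10 (0.102). Without sos2-2 MS replicate 2 alone, 13 of the 39 were not called, and without wild-type NaCl replicate 3, 7. JAZ1 lost the call without sos2-2 MS replicate 2 or NaCl replicate 3 (adjusted p up to 0.152), WRKY25 without sos2-2 MS replicate 2 or wild-type NaCl replicate 3 (up to 0.145), ZAT12 without sos2-2 MS replicate 2 (0.0937) and GSTU1 without sos2-2 MS replicate 1 (0.0702). The call of NRT3.1 (0.152), PHT1;1 (0.0852) and AT5G51440 (0.0955) was lost without sos2-2 MS replicate 2, and that of AT2G21640 without it or wild-type NaCl replicate 3 (up to 0.113). DOT1 lost it without wild-type MS replicate 2, wild-type NaCl replicate 3 or sos2-2 MS replicate 2 (up to 0.123), and GSTF14 without replicate 2 of any of the 4 groups (up to 0.229). WRKY6 lost it without any of 5 libraries (up to 0.204), AT5G05250 without any of 5 (up to 0.191), AT1G11930 without any of 7 (up to 0.136) and EXT10 without any of 8 (up to 0.141).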

How the results depend on the processing

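The 1092 calls of the sos2-2 salt response became 518 (452 higher and 66 lower) with a mean of at least 5 TPM and 1707 with the purine and length trend removed, and ranged from 456 to 1048 when each sos2-2 library was left out, which lowers the number of libraries. The 937 higher calls ranged from 389 to 850 and the 155 lower calls from 57 to 198 in those repeats. The lower calls became 697 after median centring, 450 after rescaling to nuclear genes and 797 with the trend removed, and the cause was not tested. The 338 interaction calls became 124, 140 and 111 under those 3 settings and 145 with the 5 TPM filter, and ranged from 128 (without sos2-2 MS replicate 2) to 3559 (without wild-type NaCl replicate 1) over the 11 libraries left out, with 676 without sos2-2 NaCl replicate 1, 177 without wild-type NaCl replicate 3 and 199 without sos2-2 NaCl replicate 3. Genes with transcripts called both ways numbered 0, then 5 with no filter, and 0 to 1 without each sos2-2 library. The plastid share difference was -2.88 percentage points and -5.05 to -0.705 without each library.

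The replicate block gave 1082 calls in sos2-2 and 437 in the interaction. Deviations of same-numbered libraries correlated at -0.0563 and 0.143 in sos2-2 and at 0.0822, -0.100 and 0.294 in wild type. Whether a shared number marks a pair was not tested. The labels say so of no number, and the main fit assumed no pairing. Over the named genes, 1290 repeats kept the side of the threshold, 143 lost and 9 gained a call, and 0 changed direction. Of 98 named calls 67 held without each library in turn. The 2 MS libraries and the unknown depth limit precision, and smaller changes may be missed.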

Other observations

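Called genes did not rank the NaCl libraries alike. Among the 937 genes that rose, the lowest NaCl library, relative to the median gene, was replicate 1 for 449, replicate 2 for 286 and replicate 3 for 202. All 8 called mitochondrial stress genes and 9 of 12 called stress factor and ethylene genes were lowest in replicate 2, whereas all 4 ABA metabolism genes, all 3 nitrogen genes, all 3 galactinol and raffinose genes and 9 of 10 flavonoid genes were lowest in replicate 1. For 16369 nuclear genes, purine share was set against the deviation of the gene in a library from its mean log2 level over the 11 libraries. Spearman's rho of the 2 was 0.253, -0.179 and 0.0391 in NaCl replicates 1 to 3 and 0.197 and 0.239 on MS. The genes are not independent. The part of this in the order of the libraries was not tested.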
